A study of Mus musculus with 12 samples.

Results

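The 37 genes of mouse mitochondrial DNA were examined in kidneys of mice given cisplatin, dichloroacetate, both or neither. They were taken as all rows of the deposited count table whose identifier carries a symbol starting with mt-, which gave 37 of 28991 rows, namely 13 messenger RNAs (mRNAs), 2 ribosomal RNAs (rRNAs) and 22 transfer RNAs (tRNAs). Each class is given apart. The mice were male BALB/c, an inbred strain, aged 8 weeks, with 3 mice in each of 4 groups, and RNA was from whole kidney. The combination group received daily dichloroacetate (250 mg per kg) over 5 days, then 1 cisplatin injection of 20 mg per kg together with dichloroacetate. The cisplatin group received saline for 5 days and then cisplatin at the same dose. The dichloroacetate group received 250 mg per kg daily for 6 days, and the saline group received saline for 6 days. Kidneys of injected mice were taken 24 h after cisplatin, so the data hold a single time after 1 dose. Cisplatin is a platinum drug that binds DNA and injures kidney tubules, and dichloroacetate inhibits the kinases that switch off pyruvate dehydrogenase. The series' design text gives 3 biological replicates per treatment, and each label describes 1 mouse. Injections were intraperitoneal.

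Mitochondrial DNA is a small circle, present in many copies per cell, that carries no introns and is transcribed from both strands as long transcripts. On the strand that gives most products, the rRNAs come first and the mRNAs follow, and tRNAs sit between them like punctuation marks that are cut out to free their neighbours. All its mRNAs encode core subunits of the respiratory chain or of ATP synthase, while every other protein of the mitochondrion, including those that transcribe, process and decay these RNAs, comes from the nucleus. The proximal tubule of the kidney is rich in mitochondria.

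Library totals were 29505929 to 35082408 counts in the combination, 29614283 to 35925471 in cisplatin, 41525403 to 62237514 in dichloroacetate and 38236592 to 55832441 in saline. Levels are counts scaled to the library total after TMM scaling (CPM), and CPM per kilobase where genes are compared. A gene was called at a Benjamini-Hochberg adjusted p below 0.05 over the 20370 genes tested with the edgeR quasi-likelihood test, and all 37 genes passed the filter on low counts. The 13 proximal tubule markers, such as the phosphate transporter Slc34a1, were all detected and their summed level was 16680 to 19646 CPM in the combination, 10853 to 13470 in cisplatin, 38532 to 40598 in dichloroacetate and 34162 to 38998 in saline. Of these markers, 13 of 13 were lower with cisplatin than with saline (median log2 fold change -1.91) and 13 of 13 were higher in the combination than with cisplatin (median 0.82), beside 30.4% and 18.1% of all genes, and none was at 0 in any group. Distal convoluted tubule markers were lower with cisplatin than with saline in 5 of 5 (median -2.27), and summed to 330 to 437 CPM in the combination, 276 to 305 in cisplatin, 1430 to 1724 in dichloroacetate and 1557 to 1705 in saline. Thick ascending limb markers were lower in 5 of 6 and higher in 1 (median -0.66), and collecting duct markers were lower in 5 of 8 (median -0.32). Erythroid markers summed to 97.9 to 113 CPM in the combination, 65.5 to 133 in cisplatin, 236 to 644 in dichloroacetate and 248 to 613 in saline. The part of these cell markers in the results below was not tested, and in whole kidney fewer cells of a type and less RNA per cell cannot be told apart.

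Counts of the 3 classes moved differently (plot of class shares by mouse). Shares are of the library totals, without the TMM scaling used for CPM. The 13 mRNAs together took 11.7%, 12.2% and 11.7% of all counts in the combination mice, 11.1%, 10.9% and 11.8% in the cisplatin mice, 14.9%, 14.9% and 14.0% in the dichloroacetate mice, and 14.4%, 13.8% and 12.99% in the saline mice. All 6 mice given cisplatin lay below all 6 others. The cisplatin effect, the mean log2 difference over both pretreatments, was -0.29, and an exact 2-sided permutation test within pretreatments over 400 arrangements gave p = 0.005, the smallest it allows (adjusted p = 0.012 over 12 such tests). The dichloroacetate effect on the same share was 0.08, with p = 0.03 in the exact permutation test and 0.051 after adjustment, which missed the threshold.

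The 2 rRNAs took 0.177%, 0.170% and 0.188% of counts in the combination, 0.212%, 0.216% and 0.195% in cisplatin, 0.0935%, 0.105% and 0.153% in dichloroacetate, and 0.0706%, 0.0759% and 0.0856% in saline. Their share was higher in all 6 mice given cisplatin than in all 6 others, with a cisplatin effect of 1.03 (exact permutation p = 0.005, adjusted p = 0.012). After TMM scaling this separation did not hold for mt-Rnr2. Its highest dichloroacetate mouse, at 1112 CPM, lay above the lowest cisplatin mouse at 1078 and the lowest combination mouse at 1005. For mt-Rnr1 the highest dichloroacetate mouse, at 605 CPM, lay just below the lowest combination mouse at 618. The dichloroacetate effect was 0.18 (exact permutation p = 0.38), a mean of -0.22 between the combination and cisplatin and 0.57 between dichloroacetate and saline. Without dichloroacetate mouse 1 it was 0.25, and without dichloroacetate mouse 3 it was 0.071. Set against the mRNAs of the same library, rRNA counts were 1.52, 1.40 and 1.60 per 100 mRNA counts in the combination, 1.91, 1.98 and 1.65 in cisplatin, 0.628, 0.703 and 1.09 in dichloroacetate and 0.490, 0.551 and 0.659 in saline. This ratio needs no scaling between libraries, but the labels do not say whether or how rRNA was removed, and the part of such a step in it was not tested. It had a cisplatin effect of 1.32 (exact permutation p = 0.005, adjusted p = 0.012). The effect was 0.94 between the combination and dichloroacetate, and 1.71 between cisplatin and saline.

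The 22 tRNA rows together took 0.183%, 0.187% and 0.193% of counts in the combination, 0.180%, 0.199% and 0.205% in cisplatin, 0.389%, 0.533% and 0.312% in dichloroacetate, and 0.280%, 0.245% and 0.785% in saline. The 6 mice given cisplatin lay in a narrow band below the 6 others, and among those others saline mouse 3 had more than the remaining saline mice together. The cisplatin effect was -1.03 (exact permutation p = 0.005, adjusted p = 0.012). Per 100 mRNA counts the tRNA rows held 1.57, 1.53 and 1.64 counts in the combination, 1.621, 1.82 and 1.74 in cisplatin, 2.61, 3.57 and 2.22 in dichloroacetate, and 1.94, 1.77 and 6.04 in saline. Here cisplatin mouse 2 lay above saline mouse 2, and the effect was -0.73 (exact permutation p = 0.01, adjusted p = 0.02). It was -0.45 without saline mouse 3 (exact permutation p = 0.02), and with the replicate numbers as a block the exact permutation p was 0.0625.

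**Figure D1:**
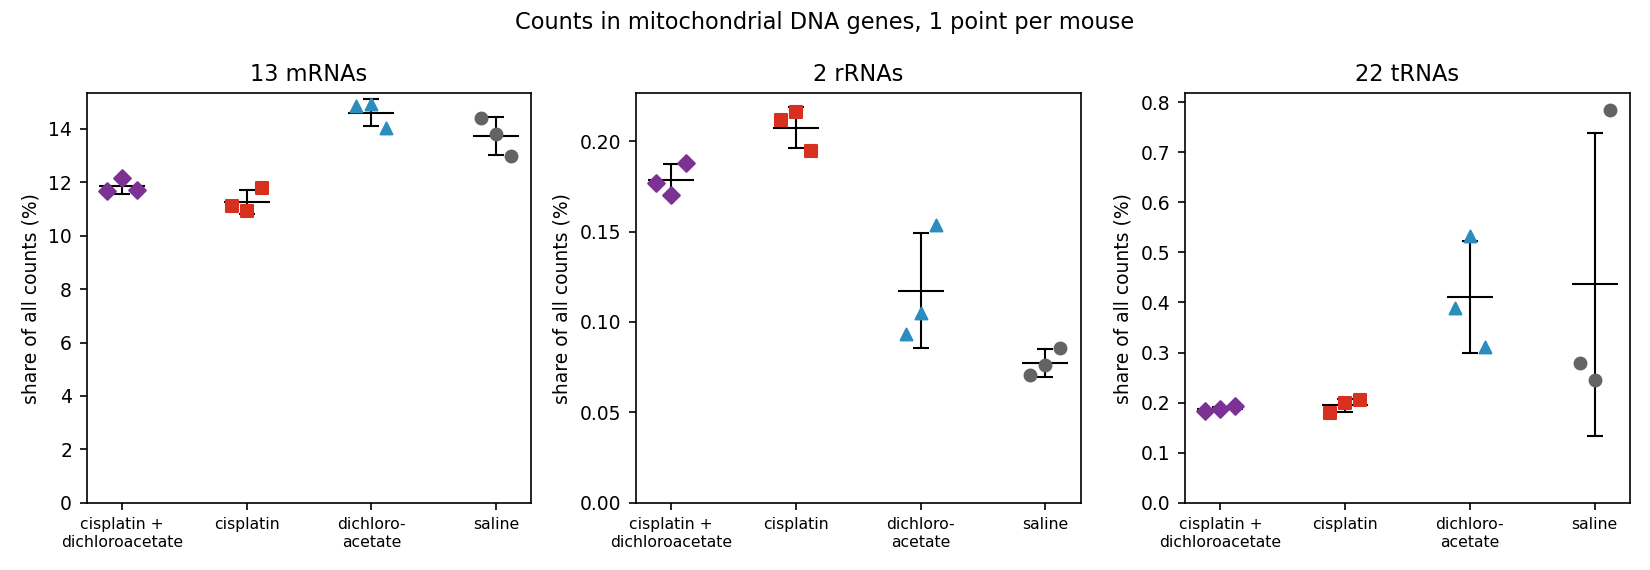
Share of all counts (%) in the 13 mRNAs, the 2 rRNAs and the 22 tRNAs of mitochondrial DNA, with 1 point per mouse and the mean ± SD of 3 mice in each group. Shares are of library totals, without TMM scaling. The mRNA and tRNA shares of all 6 mice given cisplatin lie below those of the 6 others, the rRNA shares lie above them, and saline mouse 3 stands apart for tRNAs at 0.785%.

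With cisplatin alone, all 13 mRNAs were lower than with saline, and none was higher. Among all genes tested, 30.4% were called lower and 29.7% higher in this comparison, so a fall was common, and the median log2 fold change was -0.66 over the 13 mRNAs against -0.01 over all genes. The fitted log2 fold changes ran from -0.99 for mt-Cytb to -0.17 for mt-Nd1. With library totals alone in place of TMM scaling, the median of all genes became 0.26 and 3596 of 20370 genes were lower. Then 12 of the 13 mRNAs stayed lower, and mt-Nd1 turned to 0.10.

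Complex I, which takes electrons from NADH, has 7 of its core subunits encoded here. mt-Nd1 (identifier ENSMUSG00000064341, chromosome M, 2751 to 3707, plus strand, build GRCm38) had 6554, 6777 and 7356 CPM in cisplatin mice and 7742, 7850 and 7721 CPM in saline mice. All 3 cisplatin mice were below all 3 saline mice, by a small margin (log2 fold change -0.17, SE 0.05, adjusted p = 0.0078). mt-Nd4 (chromosome M, 10167 to 11544) had 6615, 6608 and 7303 CPM in cisplatin mice and 12693, 12388 and 11820 CPM in saline mice, which gave -0.85 (SE 0.05). mt-Nd4l (chromosome M, 9877 to 10173), whose end overlaps the start of mt-Nd4 by 7 bases, had 947, 932 and 1094 CPM in cisplatin mice and 1987, 1947 and 1948 CPM in saline mice. The fitted value was -0.98 (SE 0.06, adjusted p = 1.34e-08), and its groups lay far apart. The other 4 complex I subunits lay between these, at -0.47 for mt-Nd2, -0.72 for mt-Nd6, -0.75 for mt-Nd5 and -0.78 for mt-Nd3.

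mt-Cytb (ENSMUSG00000064370, chromosome M, 14145 to 15288), the cytochrome b of complex III and its sole subunit from this DNA, had 6999.7, 6904 and 7805 CPM in cisplatin mice and 14819, 14584 and 13608 CPM in saline mice. Every cisplatin mouse was far below every saline mouse, at -0.99 on the log2 scale (SE 0.06, adjusted p = 7.35e-09). Complex IV, which passes electrons to oxygen, has its catalytic core encoded here. mt-Co1 (ENSMUSG00000064351, chromosome M, 5328 to 6872), the most counted mRNA, had 31293, 31321 and 34360 CPM in cisplatin mice and 42921, 42956 and 41379 CPM in saline mice. The groups did not overlap, and the log2 fold change was -0.39 (SE 0.05, adjusted p = 7.08e-06). mt-Co2 and mt-Co3, the other core subunits, were at -0.44 (SE 0.05) and -0.63 (SE 0.04).

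ATP synthase has the subunits a and A6L encoded here, by mt-Atp6 and mt-Atp8, whose reading frames overlap. mt-Atp6 (chromosome M, 7927 to 8607) had 9561, 9210 and 10197 CPM in cisplatin mice and 15294, 14978 and 13662 CPM in saline mice. mt-Atp8 (chromosome M, 7766 to 7969) had 2838, 2783 and 3245 CPM in cisplatin mice and 4921, 4525 and 4551 CPM in saline mice. The log2 fold changes were -0.60 (SE 0.06) and -0.66 (SE 0.07). The sequence of mt-Atp8 is shown because 43 of its 204 bases, in capitals, are also the start of mt-Atp6, so the same bases belong to both rows. All sequences here are GENCODE M21 transcripts of build GRCm38, whose mitochondrial DNA is not read from BALB/c mice.
mt-Atp8: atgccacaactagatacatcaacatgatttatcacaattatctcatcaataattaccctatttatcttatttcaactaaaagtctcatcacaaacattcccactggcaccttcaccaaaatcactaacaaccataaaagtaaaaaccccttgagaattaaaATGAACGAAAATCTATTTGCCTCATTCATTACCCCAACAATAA

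The fall was mostly larger further along the DNA in the direction of transcription (plot of log2 fold change by position). Over the 12 mRNAs of the strand that carries the rRNAs, the start position and the log2 fold change with cisplatin against saline had Pearson r = -0.90 and Spearman rho = -0.91. These are descriptions across 12 genes that share libraries, and genes are not independent replicates. As a measure within each library, chosen after the values were seen and without a test, mt-Cytb, the last of these mRNAs, was set against mt-Nd1, the first. mt-Cytb had 108, 113 and 110 counts per 100 counts of mt-Nd1 in the combination, 107, 102 and 106 in cisplatin, 166, 172 and 171 in dichloroacetate, and 191, 186 and 176 in saline. All 6 mice given cisplatin lay far below the 6 others, and this ratio needs no scaling between libraries. mt-Nd6, the sole mRNA of the opposite strand, had 2.13, 2.09 and 2.13 counts per 100 counts of the other 12 mRNAs in the combination, 2.19, 2.09 and 2.10 in cisplatin, 2.34, 2.42 and 2.40 in dichloroacetate, and 2.46, 2.33 and 2.36 in saline. The cisplatin effect on it was -0.17 (exact permutation p = 0.005, adjusted p = 0.012) and the dichloroacetate effect was -0.002 (exact permutation p = 0.895). Its neighbour mt-Nd5, on the other strand, had 201, 211 and 209 counts per 100 counts of mt-Nd6 in the combination and 207, 204 and 213 in cisplatin. In dichloroacetate these were 219, 205 and 210, and in saline 218, 217 and 200, so the groups overlapped. The effect of -0.17 therefore cannot tell strand from position, and neither was tested. The library kit named in the labels keeps no strand in its basic form, so reads of mt-Nd6 and of transcripts running the other way through it cannot be told apart.

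**Figure D2:**
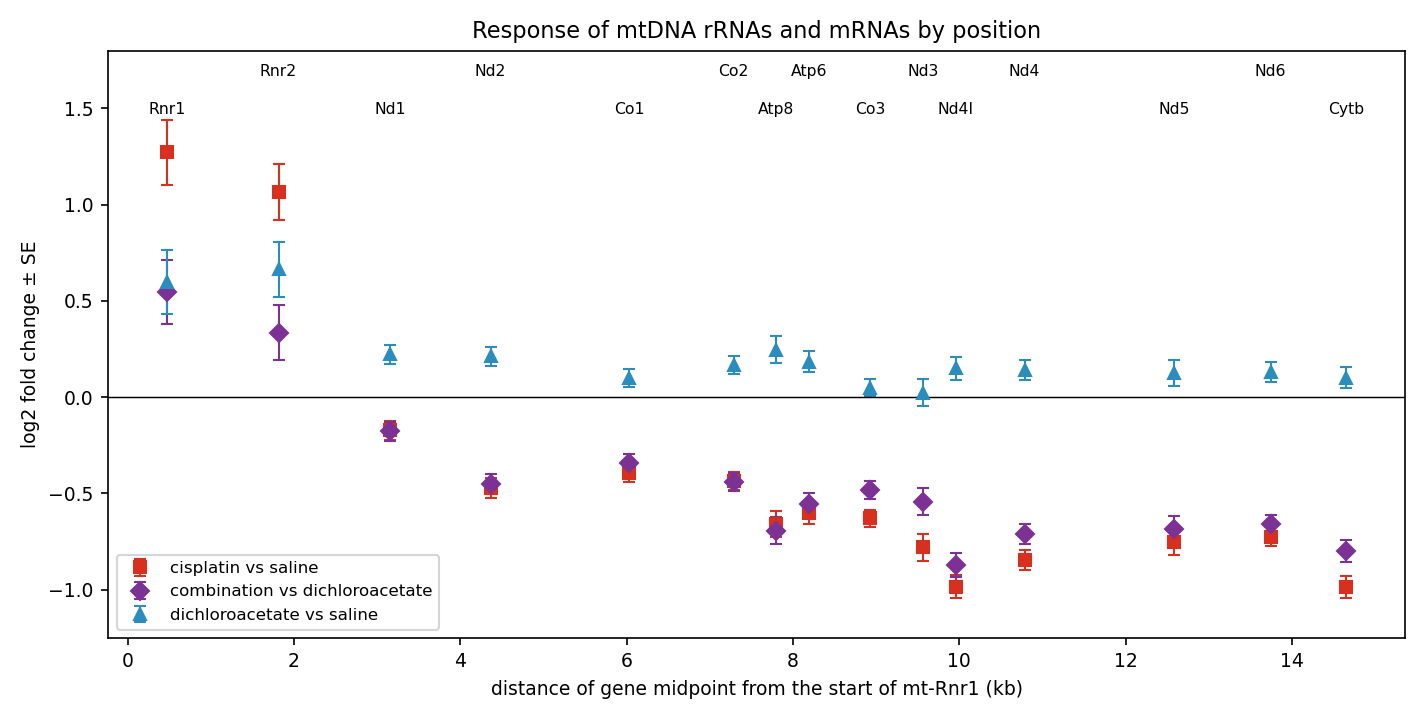
Log2 fold change ± SE (edgeR, SE from the F statistic) of the 2 rRNAs and 13 mRNAs, for 3 comparisons. The horizontal axis is the distance of the gene's midpoint from the start of mt-Rnr1 (kb). With cisplatin the rRNAs lie above 0 and the mRNAs below, from -0.17 for mt-Nd1, which turns to 0.10 with library totals alone (and to 0.01 for the combination against dichloroacetate), to -0.99 for mt-Cytb.

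Per length, mt-Co1 was the highest mRNA in every group, at 23255 ± 241 CPM per kb in the combination, 20922 ± 1141 in cisplatin, 29428 ± 323 in dichloroacetate and 27456 ± 583 in saline (SD, n = 3). In saline mice the order went on with mt-Atp8, mt-Atp6, mt-Co2 and mt-Co3 at 22871 to 20041 CPM per kb, in which the ranges of neighbours overlapped. After them came mt-Cytb at 12532 ± 561, mt-Nd4 at 8926 ± 321 and mt-Nd1 at 8120 ± 72.1, none of which overlapped its neighbours. mt-Nd2, mt-Nd4l and mt-Nd6 followed at 6636 to 6592 and overlapped one another, and mt-Nd3 and mt-Nd5, which overlapped each other, were lowest at 4453 ± 459 and 3975 ± 343. In cisplatin mice mt-Nd1, at 7206 ± 433 CPM per kb, stood above mt-Cytb at 6325 ± 433 and mt-Nd4 at 4965 ± 290, and the range of mt-Nd1 did not overlap that of mt-Cytb. The same order of mt-Nd1 over mt-Cytb held in the combination, at 8375 ± 119 and 7727 ± 272.

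**Figure D3:**
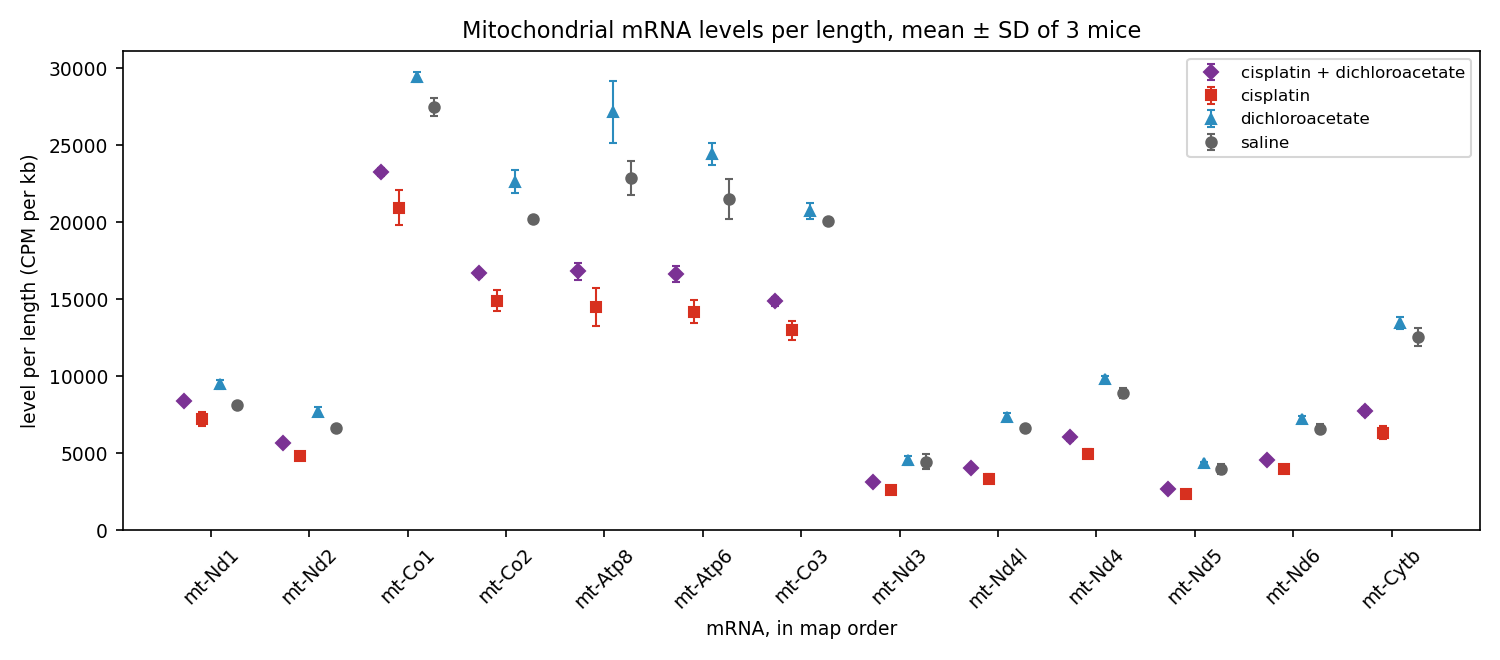
Level per length (CPM per kb, mean ± SD of 3 mice) of the 13 mRNAs in map order in the 4 groups. mt-Co1 is highest in every group, and mt-Cytb lies above mt-Nd1 in the mice without cisplatin and below it in both groups given cisplatin.

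Both rRNAs went against the mRNAs and rose with cisplatin (plot of rRNA levels). mt-Rnr1 (ENSMUSG00000064337, chromosome M, 70 to 1024), the 12S rRNA of the small mitochondrial ribosome subunit, had 721, 751 and 670 CPM in cisplatin mice and 246, 296 and 345 CPM in saline mice. The groups did not overlap, and edgeR gave 1.27 on the log2 scale (SE 0.17, adjusted p = 1.97e-05). mt-Rnr2 (ENSMUSG00000064339, chromosome M, 1094 to 2675), the 16S rRNA of the large subunit, had 1119, 1151 and 1078 CPM in cisplatin mice and 487, 518 and 596 CPM in saline mice. Its log2 fold change was 1.06 (SE 0.14, adjusted p = 2.51e-05), again without overlap. Of all genes tested, 29.7% were called higher in this comparison. The leave-one-out values stayed between 1.15 and 1.40 for mt-Rnr1 and between 1.00 and 1.15 for mt-Rnr2. Per length, mt-Rnr1 and mt-Rnr2 stood at 310 and 337 CPM per kb in saline mice, against 8120 for mt-Nd1. Labels do not say whether or how rRNA was kept out of the libraries. The values are therefore of rRNA in the libraries, and whether rRNA in the tissue rose was not tested.

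Dichloroacetate without cisplatin called 0 of the 37 genes against saline with edgeR, beside a background of 0.128% of all genes higher and 0.182% lower. At an unadjusted edgeR p below 0.05 there were 14 of the 37, beside 2427 of the 20370 genes tested. All 13 mRNAs had a fitted value above 0, from 0.02 for mt-Nd3 to 0.25 for mt-Atp8, with a median of 0.14 against -0.01 over all genes. With library totals alone the lowest of the 13 was -0.02. For mt-Nd1 the levels were 9294, 9165 and 8740 CPM in dichloroacetate mice and 7742, 7850 and 7721 CPM in saline mice. They did not overlap, and the log2 fold change of 0.22 (SE 0.05) had an adjusted p = 0.085. mt-Rnr1 had 353, 387 and 605 CPM in dichloroacetate mice and 246, 296 and 345 CPM in saline mice, with 0.60 (SE 0.17, adjusted p = 0.17). mt-Rnr2 had 663, 763 and 1112 CPM in dichloroacetate mice and 487, 518 and 596 CPM in saline mice, with 0.67 (SE 0.14, adjusted p = 0.081). For both rRNAs the third dichloroacetate mouse was the high one. DESeq2 called 7 of the 37 higher (mt-Nd1, mt-Nd2, mt-Co2, mt-Atp8, mt-Atp6, mt-Rnr2 and mt-Tl1), beside 187 of all 20370 genes. With limma-voom 0 were called, beside 38 of 20370 genes higher and 43 lower. By edgeR without the filter on low counts 3 were called higher, beside 55 of 28991 genes.

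**Figure D4:**
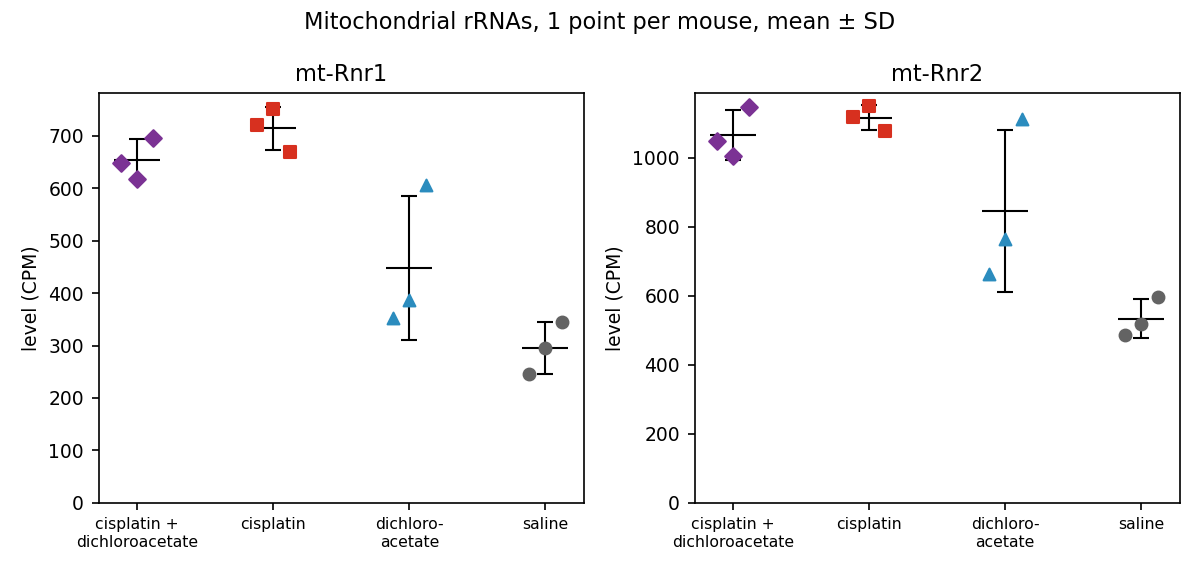
Levels (CPM) of mt-Rnr1 and mt-Rnr2, with 1 point per mouse and the mean ± SD of 3 mice in each group. Both groups given cisplatin lie above saline, and in the dichloroacetate group mouse 3 is at 605 CPM for mt-Rnr1 and 1112 CPM for mt-Rnr2.

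In the combination, all 13 mRNAs were higher than with cisplatin alone, by small amounts. The background was 18.1% of all genes higher and 13.5% lower. The log2 fold changes ran from 0.15 for mt-Co1 to 0.29 for mt-Cytb, with a median of 0.22 against 0.01 over all genes. mt-Cytb had 8548, 9167 and 8806 CPM in the combination and 6999.7, 6904 and 7805 CPM in cisplatin mice (log2 fold change 0.29, SE 0.06, adjusted p = 0.0016). mt-Nd4 had 8044, 8594 and 8249 CPM in the combination and 6615, 6608 and 7303 CPM in cisplatin mice (0.28, SE 0.05, adjusted p = 0.0011). mt-Co1 had 35541, 36282 and 35962 CPM in the combination and 31293, 31321 and 34360 CPM in cisplatin mice (0.15, SE 0.05, adjusted p = 0.022). In these 3 genes the combination mice lay above all cisplatin mice, and cisplatin mouse 3 was the nearest to them. The call depends on the scaling and on single libraries. With library totals alone 2 of 13 mRNAs were called, beside 2317 of 20370 genes higher. With only these 2 groups in the fit it was 5 of 13, beside 3441 of 19316 genes. Without cisplatin mouse 1 it was 8 of 13, beside 2514 of 20632 genes. All had values above 0.

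Neither rRNA was called between the combination and cisplatin with edgeR (DESeq2 and limma-voom also 0). Of the 2 rRNAs, 0 had an unadjusted edgeR p below 0.05, beside 8363 of the 20370 genes tested. mt-Rnr1 had 649, 618 and 696 CPM in the combination and 721, 751 and 670 CPM in cisplatin mice, which overlapped (-0.13, SE 0.16). mt-Rnr2 had 1048, 1005 and 1147 CPM in the combination and 1119, 1151 and 1078 CPM in cisplatin mice (-0.07, SE 0.14).

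Against dichloroacetate alone, the combination had all 13 mRNAs lower, at -0.87 for mt-Nd4l to -0.18 for mt-Nd1, where mt-Nd1 turned to 0.01 with library totals alone. The background was 19.2% of all genes lower and 21.5% higher. mt-Cytb had 8548, 9167 and 8806 CPM in the combination and 15449, 15762 and 14945 CPM in dichloroacetate mice, so the groups were far apart (-0.80, SE 0.06, adjusted p = 1.72e-07). Along the 12 mRNAs the start position and the fold change had Pearson r = -0.83 and Spearman rho = -0.83, again a description across genes of the same libraries. mt-Rnr1 was higher (0.55, SE 0.17, adjusted p = 0.018) and mt-Rnr2 was not called (0.33, SE 0.14, adjusted p = 0.079). Without dichloroacetate mouse 1 or mouse 2, or without combination mouse 3, 0 of the 2 rRNAs were called, and without dichloroacetate mouse 3 both were.

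Against saline, the combination had 12 of 13 mRNAs lower and mt-Nd1 not called (0.04, SE 0.05), and both rRNAs higher, at 1.15 (SE 0.17) for mt-Rnr1 and 1.00 (SE 0.14) for mt-Rnr2. The background was 19.6% of all genes lower and 20.6% higher. The mRNA median was -0.45 against 0.01 over all genes. With library totals alone mt-Nd1 was called higher, at 0.19, and 10 mRNAs were called lower, beside 7482 and 2508 of 20370 genes. The comparisons of cisplatin, of dichloroacetate and of the combination with saline share the same 3 saline mice.

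The interaction was taken as the cisplatin response on the log2 scale with dichloroacetate less the response without it. It was called lower for both rRNAs, at -0.73 (SE 0.23, adjusted p = 0.046) for mt-Rnr1 and -0.73 (SE 0.20, adjusted p = 0.023) for mt-Rnr2, beside 7.15% of all genes lower and 11.4% higher. In levels, the rise of mt-Rnr1 was to 654 ± 39.4 CPM in the combination, against 448 ± 137 in dichloroacetate, and to 714 ± 41.3 CPM in cisplatin, against 296 ± 49.9 in saline (SD, n = 3). The mt-Rnr1 call was lost without any of 9 of the 12 libraries and the mt-Rnr2 call without any of 4, with every value below 0. DESeq2 and limma-voom called mt-Rnr2 (adjusted p = 0.023 and 0.026) and not mt-Rnr1 (adjusted p = 0.061 and 0.051). Leaving out dichloroacetate mouse 3 gave -0.45 for mt-Rnr1, and the range over the 12 libraries was -0.87 to -0.45. For mt-Rnr2 this range was -0.88 to -0.48. No mRNA was called for the interaction with edgeR (0 also by DESeq2 or limma-voom), and the mRNA values ran from -0.03 to 0.24. At an unadjusted edgeR p below 0.05 there were 3 mRNAs, beside 6398 of the 20370 genes tested.

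The tRNA rows held 4 to 92569 counts per library, and the 2 most counted rows in most libraries lie on the opposite strand. mt-Ts1 and mt-Te together held 77.4%, 75.8% and 74.8% of tRNA counts in the combination, 75.6%, 71.2% and 63.7% in cisplatin, 50.6%, 38.5% and 56.6% in dichloroacetate and 55.8%, 62.7% and 29.9% in saline. In dichloroacetate mouse 2 and saline mouse 3 the 8 rows from mt-Ti to mt-Ty together held more, at 41.4% and 34.0%. mt-Ts1, a tRNA for serine, lies against the end of mt-Co1 and shares 3 bases with it, and mt-Te, the tRNA for glutamate, lies next to mt-Nd6. As for mt-Nd6, the kit keeps no strand in its basic form. Reads of these 2 rows, and of other tRNA rows on that strand, cannot be told apart from transcripts running the other way. The tRNAs that the results turn on are printed as DNA letters on their own strand, with the anticodon, the 3 bases that read the codon, in capitals. Each stands between 5 base pairs of the anticodon stem.
mt-Ts1: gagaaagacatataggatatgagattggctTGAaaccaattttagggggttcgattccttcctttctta
mt-Te: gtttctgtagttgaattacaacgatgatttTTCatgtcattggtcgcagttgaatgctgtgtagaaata
mt-Td: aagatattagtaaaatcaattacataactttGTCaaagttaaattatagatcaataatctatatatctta
mt-Tk: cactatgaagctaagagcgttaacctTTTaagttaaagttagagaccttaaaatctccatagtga
mt-Tg: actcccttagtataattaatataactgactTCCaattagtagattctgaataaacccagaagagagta
mt-Tr: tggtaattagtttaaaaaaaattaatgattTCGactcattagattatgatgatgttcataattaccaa
mt-Th: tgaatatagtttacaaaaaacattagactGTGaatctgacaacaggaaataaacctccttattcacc

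With cisplatin, 13 of the 22 tRNA rows were called lower than with saline and 1 higher, beside 30.4% and 29.7% of all genes. The median was -1.75 over the 22 rows. The steepest falls were those of mt-Td, mt-Tk, mt-Tg and mt-Tr, the tRNAs for aspartate, lysine, glycine and arginine. mt-Td (chromosome M, 6942 to 7011) held 75, 547 and 64 counts in cisplatin mice and 2423, 2238 and 23794 in saline mice. mt-Tk (chromosome M, 7700 to 7764) held 319, 244 and 242 counts in cisplatin mice and 11146, 2517 and 23798 in saline mice. All cisplatin values were below all saline values, while the saline mice differed widely among themselves. The log2 fold changes were -5.31 (SE 1.24, adjusted p = 0.0021) and -5.45 (SE 1.03, adjusted p = 0.00045).

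mt-Tg (chromosome M, 9391 to 9458) held 170, 166 and 185 counts in cisplatin mice and 4994, 5909 and 10915 in saline mice. mt-Tr (chromosome M, 9808 to 9875) held 249, 150 and 201 counts in cisplatin mice and 4947, 5805 and 10909 in saline mice. Both rows had nearly the same counts within each saline library, although mt-Nd3 lies between them. Their log2 fold changes were -5.22 (SE 0.81, adjusted p = 8.01e-05) and -5.01 (SE 0.81, adjusted p = 0.00012). The adjoining rows mt-Th, mt-Ts2 and mt-Tl2, for histidine, serine and leucine, ranged over 294 to 860 counts in the cisplatin group, against 5413 to 11584 in the saline group. They were at -4.06 (SE 0.50), -3.83 (SE 0.51) and -3.41 (SE 0.51).

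mt-Te (chromosome M, 14071 to 14139, minus strand) held 8710, 7453 and 9399 counts in cisplatin mice and 24540, 26657 and 22399 in saline mice, a tight pair of groups with -1.27 (SE 0.10, adjusted p = 1.05e-07). mt-Ts1 (chromosome M, 6870 to 6938, minus strand) was at -0.51 (SE 0.17, adjusted p = 0.020) and mt-Tp, for proline, at -0.30 (SE 0.09, adjusted p = 0.0099). mt-Tf, for phenylalanine, was called higher at 1.34 (SE 0.37, adjusted p = 0.0067) on 13, 15 and 14 counts in cisplatin mice and 8, 8 and 4 in saline mice, so the call rests on very few counts. mt-Tv, for valine, ranged over 12 to 28 counts in the cisplatin group, against 14 to 34 in the saline group, and mt-Tt, for threonine, over 58 to 65 against 83 to 87. Saline libraries were deeper, and in CPM the means were 0.605 against 0.583 for mt-Tv and 1.72 against 1.98 for mt-Tt. Neither was called, nor was mt-Tl1, for leucine, at 0.03 (SE 0.13). The other 5 rows without a call were mt-Tw, mt-Ta, mt-Tn, mt-Tc and mt-Ty, at -1.98 to -1.05 with SEs of 0.79 to 1.08.

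Neighbouring tRNA rows on both strands moved together in single libraries, among mice of the same treatment (plot of tRNA counts in map order). The 8 rows from mt-Ti to mt-Ty span mt-Nd2 and serve isoleucine, glutamine, methionine, tryptophan, alanine, asparagine, cysteine and tyrosine. They held 12146 to 13083 counts each in saline mouse 3 and 10859 to 13299 in dichloroacetate mouse 2, but 478 to 2037 in saline mice 1 and 2. mt-Td and mt-Tk, with 688 bases and mt-Co2 between them, held 22724 and 23254 counts in dichloroacetate mouse 1, 17735 and 16287 in dichloroacetate mouse 2, and 1626 and 862 in dichloroacetate mouse 3. mt-Tg and mt-Tr went another way, with 5365 and 5409 counts in dichloroacetate mouse 1, 315 and 334 in mouse 2, and 5131 and 5290 in mouse 3. In the cisplatin group mouse 3 had 2668 to 4223 counts in the 5 rows from mt-Tw to mt-Ty, where mouse 1 had 289 to 1508. mt-Nd2, which lies among the 8 rows, had 6915, 6907 and 6841 CPM in saline mice 1, 2 and 3. It held 237908 counts in saline mouse 3, so as many added counts as in a tRNA row would be a small part. These levels therefore cannot show whether mt-Nd2 shared the jump. What sets these jumps was not tested, since reads were not analysed here, and whether a row's reads are from a mature tRNA or a longer transcript was not tested either.

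**Figure D5:**
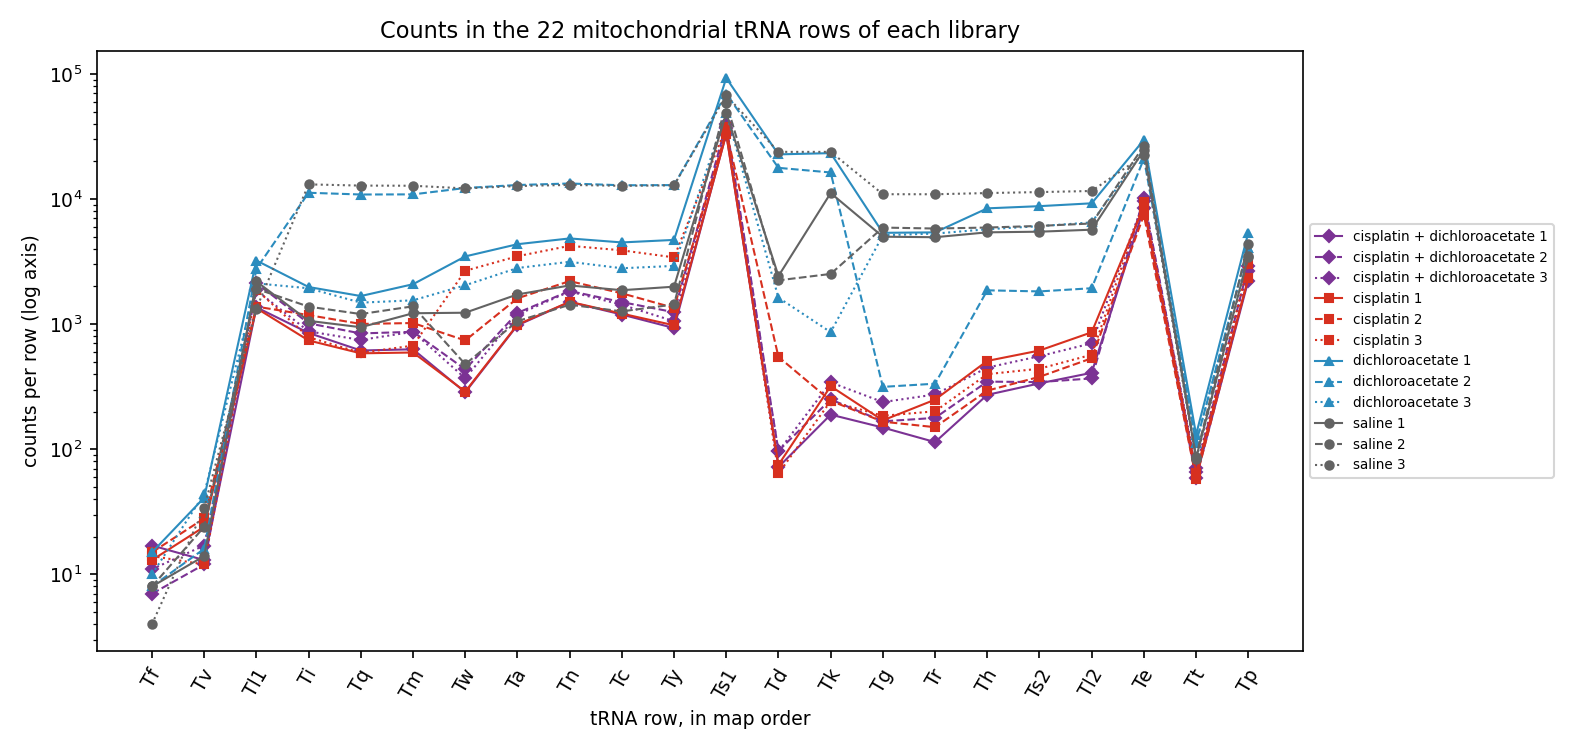
Counts (log axis) in the 22 tRNA rows in map order, with 1 line per library. Saline mouse 3 and dichloroacetate mouse 2 run at 10859 to 13299 from Ti to Ty, and all 6 mice given cisplatin lie below the 6 others from Td to Tl2 and at Te.

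The tRNA calls were therefore also read without saline mouse 3 and dichloroacetate mouse 2, a choice made after the values were seen. Then 8 of the 22 rows stayed lower with cisplatin than with saline, beside 6031 of 20494 genes lower and 5837 higher. They were at -2.89 for mt-Td, -4.31 for mt-Tk, -4.55 for mt-Tg and -4.32 for mt-Tr. The others were at -3.40 for mt-Th, -3.17 for mt-Ts2, -2.77 for mt-Tl2 and -1.17 for mt-Te. The rows mt-Ti, mt-Tq and mt-Tm lost their call, at 0.009, -0.12 and -0.34, and so did mt-Ts1 and mt-Tp, at -0.19 and -0.20. The median over the 22 rows became -0.15. mt-Tn and mt-Tc were then called higher, at 0.98 and 0.91, where all 12 libraries gave -1.05 and -1.22 without a call. The mRNA and rRNA counts of calls in this comparison were 13 lower and 2 higher with and without these libraries. In counts, the 6 mice given cisplatin lay below the 6 others without overlap in the 8 rows that stayed lower. For mt-Tr in CPM, dichloroacetate mouse 2 at 8.31 lay just below combination mouse 3 at 8.35.

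Dichloroacetate called none of the 22 tRNA rows against saline with edgeR, beside 0.128% of all genes higher and 0.182% lower. At an unadjusted edgeR p below 0.05 there were 3 rows, beside 2427 of the 20370 genes tested. DESeq2 called 1 row higher, beside 187 of 20370 genes, and limma-voom called 0. Between the combination and cisplatin, 1 of 22 rows was called, beside 18.1% of all genes higher and 13.5% lower. Calls were rarer than among all genes in this fit, which takes its spread from all 4 groups. The called row was mt-Te, on 8498, 10245 and 9564 counts in the combination and 8710, 7453 and 9399 in cisplatin mice. In CPM these were 276, 278 and 291 in the combination and 247, 222 and 235 in cisplatin mice, without overlap (0.27, SE 0.10, adjusted p = 0.0498). The call was lost without any of 8 of the 12 libraries, and with library totals alone no tRNA row was called. With only these 2 groups in the fit, 2 tRNA rows were higher and 1 lower, beside 3441 and 3232 of 19316 genes.

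The combination had 13 of 22 tRNA rows lower than dichloroacetate and none higher, beside 19.2% and 21.5% of all genes. mt-Td held 72, 97 and 96 counts in the combination and 22724, 17735 and 1626 in dichloroacetate mice, with -6.80 (SE 1.37, adjusted p = 0.0014). mt-Tk held 189, 250 and 342 counts in the combination and 23254, 16287 and 862 in dichloroacetate mice, with -5.16 (SE 1.02, adjusted p = 0.0013). mt-Te had 276, 278 and 291 CPM in the combination and 519, 522 and 653 CPM in dichloroacetate mice, with -1.002 (SE 0.10, adjusted p = 2.84e-06). Against saline the combination had 10 tRNA rows lower and 2 higher, mt-Tf at 1.20 and mt-Tl1 at 0.36, beside 19.6% and 20.6% of all genes. Without saline mouse 3 and dichloroacetate mouse 2, 18 rows were lower than with dichloroacetate, beside 3597 of 20494 genes. Against saline 8 were then lower and 0 higher, beside 3759 and 4062 of 20494 genes. No tRNA row was called for the interaction in all 12 libraries (0 also by DESeq2 and limma-voom). At an unadjusted edgeR p below 0.05 there were 0 tRNA rows, beside 6398 of the 20370 genes tested. Without saline mouse 3, 5 were called lower (mt-Tw, mt-Ta, mt-Tn, mt-Tc and mt-Ty), beside 1466 of 20568 genes. Without dichloroacetate mouse 3, mt-Te was called higher at 0.39, beside 2172 of 20565 genes.

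Copies of mitochondrial DNA in the nucleus can share reads with these rows. A search of the GENCODE transcripts found 17 nuclear transcripts that match a member at 90% identity or more over at least 50 bases, of which 9 have rows of their own. For 9 of the 37 members a copy matches at 95% or more over at least 30% of the length. Gm10222 matches 99.0% of mt-Nd4l at 100% identity, and its row held 83.2% to 98.8% of the mt-Nd4l count in every library. Gm13340 (a copy of mt-Co1) held 7.88% to 8.33% of its member's count, Gm13341 (mt-Co2) 18.7% to 20.9%, and Gm13339 (mt-Nd2) 5.72% to 6.51%. With cisplatin against saline these rows were at -0.85 for Gm10222, -0.45 for Gm13340, -0.43 for Gm13341 and -0.34 for Gm13339, and their members at -0.98, -0.39, -0.44 and -0.47. The sources used here do not give how the authors' counting assigned reads that match both, so the levels of mt-Nd4l, mt-Co1, mt-Co2 and mt-Nd2 are uncertain by these shares. Copies without a row of their own match mt-Atp6 (100% identity over 99.6% of its length), mt-Co3 (100% over 99.9%) and mt-Co2 (100% over 99.6%). Others match mt-Nd3 (99.7% over 99.1%) and mt-Nd4 (100% over 63.6%). The levels of these members are uncertain too, by an amount that the counts cannot give. mt-Nd1, mt-Atp8, both rRNAs and all 22 tRNAs had no match in this search, and the copy of mt-Cytb held at most 6 counts. The search covered annotated transcripts alone and kept matches of at least 50 bases, while the tRNA rows are 59 to 75 bases long. The 43 bases that mt-Atp8 shares with mt-Atp6 are fewer than that minimum. The lack of a match therefore cannot show that these rows have no nuclear copy.

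Nuclear genes of the same complexes were compared, from lists chosen with earlier results of these data known. With cisplatin against saline, 7 of 7 core subunits of complex I were lower (median -0.44), as were 9 of 9 of complex III (-0.44), 8 of 9 of complex IV (-0.44), 15 of 15 of ATP synthase (-0.46) and 4 of 4 of complex II (-0.59), which has no mitochondrially encoded subunit. Background shares were 30.4% lower and 29.7% higher. Ndufs1, the largest complex I core subunit, had 158 ± 15.8 CPM in cisplatin mice and 293 ± 7.54 in saline mice (SD, n = 3), which gave -0.89 (SE 0.06). Cox7b of complex IV was at -0.75 (SE 0.07) and Atp5c1, the gamma subunit of ATP synthase, at -0.69 (SE 0.05). In the combination against cisplatin, 7 of 7, 9 of 9, 9 of 9, 14 of 15 and 4 of 4 of these lists were higher, with medians of 0.33, 0.35, 0.34, 0.33 and 0.37, beside 18.1% of all genes. The mRNAs of mitochondrial DNA had a median of 0.22 in the same comparison.

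Nuclear genes that act on mitochondrial RNA were called in both directions with cisplatin, at shares to be read beside the 29.7% of all genes higher and 30.4% lower. Of 8 genes of mitochondrial transcription, 1 was higher and 2 were lower, Tfb2m, the transcription initiation factor, at -0.34 (SE 0.05) and Mterf2, of the termination factor family, at -0.33 (SE 0.11). Of 23 genes of RNA processing, stability and decay, 7 were higher and 8 lower, shares near those of all genes, with a median of -0.02. Pde12, a phosphodiesterase that shortens poly(A) tails, was higher at 0.66 (SE 0.06). Lrpprc, which stabilises mitochondrial mRNAs, was lower at -0.49 (SE 0.07), with 83.0 ± 7.83 CPM in cisplatin mice and 116 ± 4.78 in saline mice (SD, n = 3). Prorp, the nuclease that cuts the 5' ends of mitochondrial tRNAs, was lower at -0.56 (SE 0.09). In the combination against cisplatin, Lrpprc was higher at 0.46 (SE 0.07), Prorp higher at 0.46 (SE 0.09) and Pde12 lower at -0.43 (SE 0.06). Of 14 regulators of mitochondrial biogenesis, 5 were higher and 8 lower with cisplatin. Esrrg, a nuclear receptor of oxidative metabolism genes, was at -1.98 (SE 0.11) and Pprc1, a coactivator related to PGC-1, at 1.16 (SE 0.10), and in the combination against cisplatin they were at 1.05 (SE 0.11) and -0.89 (SE 0.10).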

How the data were processed

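Per the labels' protocols, total kidney RNA was prepared on columns, treated with DNase and made into libraries with a TruSeq RNA kit. The authors deposited whole-number read counts per Ensembl gene, 1 column per library, without normalization. The submitters' processing notes name Trimmomatic, TopHat, Cufflinks, HTSeq, bedtools, DESeq and build mm10, and give no counting details. The deposited normalised table was not used. Of 28991 identifiers, 27955 were matched to GENCODE M21. All 12 libraries entered 1 edgeR 4.0.16 model (R 4.3.3) with a mean per group, TMM scaling, filterByExpr at 10 counts, and the 2-sided quasi-likelihood test, with Benjamini-Hochberg adjustment over 20370 genes. The SE of an edgeR log2 fold change was taken as its absolute value divided by the square root of the test's F statistic. The biological coefficient of variation was 0.0917, with 8 residual degrees of freedom. Replicates differed by 4.40 to 26.3 chi-square per degree of freedom, so none was a repeat deposit. Class shares were tested by exact permutation of a treatment within the other. Scripts were tested on simulated data. BLAST 2.17.0 searched for nuclear copies. Alternatives used DESeq2 1.42.0, limma-voom (limma 3.58.1), other scalings, no filter, fewer groups, a replicate block and leaving out libraries. The genes examined and the gene lists (267 of 270 entries matched) were chosen with earlier results of these data known. Nuclear genes named are, per list, up to 3 called genes with the largest rise or fall at 5 CPM or more, and of these a few are given.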

Additional observations from a re-analysis of the deposited data

Results flagged for a closer look

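The response of both mitochondrial rRNAs to cisplatin differed between pretreatments by the edgeR test of the difference itself. The interaction was -0.73 for mt-Rnr1 (SE 0.23, adjusted p = 0.046) and -0.73 for mt-Rnr2 (SE 0.20, adjusted p = 0.023). mt-Rnr2 was at 1067 ± 72.5 CPM in the combination, against 846 ± 235 in dichloroacetate, and at 1116 ± 36.7 CPM in cisplatin, against 534 ± 56.2 in saline (SD, n = 3). In the dichloroacetate group mouse 3 was highest for both rRNAs, and the values without it were -0.45 and -0.48. The mt-Rnr1 call was lost without any of 9 of the 12 libraries, including that one, and with DESeq2 (adjusted p = 0.061) and limma-voom (adjusted p = 0.051). The mt-Rnr2 call was lost without any of 4 libraries and was kept by both other tools.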

How the results depend on the processing

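Counts below are of the 37 genes, from edgeR unless named. With library totals alone, 2 were higher in the combination than with cisplatin and 2 than with dichloroacetate, beside 2317 and 8458 of 20370 genes. mt-Nd1 turned to 0.10 (cisplatin against saline) and 0.013 (combination against dichloroacetate). With only the compared groups in the fit, 7 were higher and 1 lower in the combination than with cisplatin, beside 3441 and 3232 of 19316 genes. For dichloroacetate against saline, DESeq2 called 7 higher, beside 187 of all 20370 genes. There edgeR without the filter called 3 higher, beside 55 of 28991. For the interaction, DESeq2 and limma-voom each called 1 lower (mt-Rnr2), beside 1682 and 1449 of 20370 genes. Leave-one-out counts were 0 to 1 higher (dichloroacetate against saline), 8 to 14 higher (combination against cisplatin), 0 to 2 higher (combination against dichloroacetate), 2 to 4 higher (combination against saline), and 0 to 3 higher and 0 to 7 lower (interaction). Counts lower were 20 to 28 (cisplatin against saline), 21 to 32 (combination against dichloroacetate) and 20 to 28 (combination against saline). These fits tested 20543 to 20698 genes. Of all genes, 5 to 72, 2514 to 3889, 3511 to 4546, 3311 to 4234 and 1538 to 2607 were higher, in the order above. Those lower were 1041 to 1606 for the interaction, and 5349 to 6283, 3298 to 4066 and 3248 to 4075 for the last 3 comparisons.

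Deviations from the group means correlated above 0.1 in 4 of 18 same-numbered pairs of libraries (-0.095 to 0.15). Differently numbered pairs were not compared, so this cannot show whether the replicate numbers pair the mice. With the replicate block, 1 gene was higher for dichloroacetate against saline and 2 for the combination against dichloroacetate, beside 56 and 4438 of 20370 genes. In the block the tRNA per mRNA cisplatin effect (-0.73) and the mRNA share dichloroacetate effect (0.0813) had exact permutation p = 0.0625 each.

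Without saline 3 and dichloroacetate 2 (chosen after seeing the data), 5 genes were higher with cisplatin than saline, 0 in the combination than dichloroacetate and 2 than saline, with 7 lower for the interaction. In the same order these were 5837, 3943, 4062 and 1245 of all 20494 genes. mt-Ti was then 0.00868 (leave-one-out -3.00 to 0.00896, the highest without saline 3), mt-Tn 0.98 and mt-Tc 0.91. Leaving out saline 1 and dichloroacetate 1 too left a single library in the saline and in the dichloroacetate group, so effect sizes alone are given. Cisplatin against saline was then 1.43 for mt-Ta, 1.39 for mt-Tn and 1.35 for mt-Tc, and the combination against saline was 0.22 for mt-Tw.

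Dichloroacetate effects on class measures (log2, leave-one-out) ran from 0.0617 to 0.0991 for the mRNA share, from -0.14 to 0.28 for the tRNA share, from -0.22 to 0.22 for tRNA per mRNA, from -0.0246 to 0.175 for rRNA per mRNA and from -0.0101 to 0.00952 for mt-Nd6 per other mRNA. Without saline 3 and dichloroacetate 2 they were 0.0538 for the mRNA share and 0.12 for tRNA per mRNA. On untransformed values the tRNA share was -0.016 and rRNA per mRNA -0.048, and without the most counted gene of each class the tRNA share was -0.055. The leave-one-out dichloroacetate effect on the rRNA share ran from 0.0712 to 0.25. Cisplatin effects on the 6 class measures kept direction and threshold in the alternatives run, other than tRNA per mRNA in the block, and that effect ran from -0.89 to -0.45 over the leave-one-out fits. The cause was not tested. Depth limits mt-Tf and mt-Tv, with 4 to 44 counts per library.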

Other observations

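Further nuclear lists of mitochondrial upkeep were compared between cisplatin and saline. Of 23 mitochondrial aminoacyl-tRNA synthetases and related enzymes, which load the tRNAs, 7 were higher and 8 lower. Fars2, the enzyme for phenylalanine, had 4.74 ± 0.593 CPM in cisplatin mice and 45.7 ± 2.77 in saline mice (SD, n = 3), which gave -3.27 on the log2 scale (SE 0.08), and Gatb, a subunit of the glutaminyl-tRNA amidotransferase, was at -1.47 (SE 0.07). Of 16 genes of tRNA maturation and modification, 7 were higher and 1 lower, with Qtrt1, which inserts queuine into tRNAs, at 0.96 (SE 0.09). Of 12 genes of rRNA modification, 5 were higher and 4 lower, with Mettl15, a methyltransferase of the 12S rRNA, at -2.77 (SE 0.18).

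Of 14 genes of mitochondrial DNA replication and the nucleoid, 5 were higher and 3 lower with cisplatin, with Mgme1, a mitochondrial exonuclease, at 0.48 (SE 0.09). Of 13 mitophagy genes, 3 were higher and 7 lower. Sqstm1, an autophagy receptor, was at 1.27 (SE 0.06) and Pink1, a kinase that marks damaged mitochondria, at -0.87 (SE 0.06). Of 14 membrane genes chosen as markers of mitochondrial mass, 1 was higher and 8 lower, with Chchd3, of the inner membrane contact sites, at -1.75 (SE 0.10) and the outer membrane channel Vdac1 at -0.70 (SE 0.07). These counts stand beside 29.7% of all genes higher and 30.4% lower.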
